A study of Mus musculus with 12 samples.

Results

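Voltage-gated calcium channels of the L-type and T-type classes were examined through 10 genes for their subunits: the L-type pores Cacna1c and Cacna1d, the T-type pores Cacna1g and Cacna1h, the beta subunits Cacnb1, Cacnb2 and Cacnb3, and the alpha2delta subunits Cacna2d1, Cacna2d2 and Cacna2d3. They were chosen by name, as pore, beta and alpha2delta subunits of these channels, from the 54658 gene names of the table, and all 10 were found. The libraries are total RNA, depleted of ribosomal RNA, of the left atrium (LA) of mice on a mixed genetic background. The mice were 2 to 3 months old when given doxycycline chow. The 6 iNICD mice carried αMHC-rtTA and tetO_NICD, so that doxycycline switched on the Notch intracellular domain (NICD) in cells with an active αMHC promoter, which is cardiomyocyte-specific, and the 6 littermate controls carried αMHC-rtTA alone. Controls received doxycycline as well, in the chow of both genotypes, for the 3 weeks up to the day the tissue was taken. One library stands for the LA of 1 animal, so the replicates are separate animals (4 female and 2 male controls, 3 female and 3 male iNICD mice). The question was whether Notch activation in adult cardiomyocytes altered the RNA of these subunits in the LA.

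Opening of L-type channels at the depolarized membrane lets calcium into the cardiomyocyte, where it releases more calcium from the sarcoplasmic reticulum and so couples excitation to contraction. T-type channels open at more negative potentials, pass a brief current, and are best known in the heart for pacemaking and for a fetal current that fades in the adult ventricle. A pore subunit carries the current, a cytoplasmic beta subunit brings the L-type pore to the membrane and shapes its gating, and an extracellular alpha2delta subunit raises the number of pores at the surface.

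Library totals ran from 21432632 to 27182038 counts, and the 10 genes had between 98 (Cacna1d) and 15298 (Cacna1h) counts in a library. Levels are given as normalized CPM, counts scaled to a common library total after adjustment by the TMM method. Notch1, whose counts include any reads from the NICD transgene, was at 108 to 131 in controls and 2975 to 4077 in iNICD, so every library matched its label. Control replicate 5 stood apart: on the first principal component of all tested genes it lay at -70.4, the other controls between -19.1 and 8.75, and its TMM factor was 0.863. The LA label was checked on ventricular markers: Irx4 had 0 counts in every library and Myl2 reached at most 3.22, while Myh7, a slow myosin of the ventricle that atrial tissue can hold, was at 13.1 to 29.6 in 4 libraries (control replicates 1 and 2, iNICD replicates 2 and 6) and at 958 to 2230 in the other 8.

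One of the 10 genes passed the test in iNICD LA. Cacna2d1 was higher, 1.29-fold, and no member was lower at an adjusted p under 0.05 (edgeR quasi-likelihood test, adjusted over all 13541 genes tested). The Cacna2d1 call was lost with no filter on low counts and with the replicate number as a block. Over all tested genes 2.78% were called higher, 1.34% lower and 4.12% in either direction. Of the 10 members, 7 had a log2 fold change above 0 and 3 below, with a median of 0.23 beside -0.01 over all tested genes, of which 48.7% lay above 0. An unadjusted p under 0.05 was reached by Cacna2d1 and Cacnb2, against 17.4% of all tested genes. In no member were the iNICD libraries all above or all below the controls, a separation seen upward in 2.58% and downward in 1.25% of tested genes. In whole atria, fewer cells of a type and less RNA per cell cannot be told apart.

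**Figure D1:**
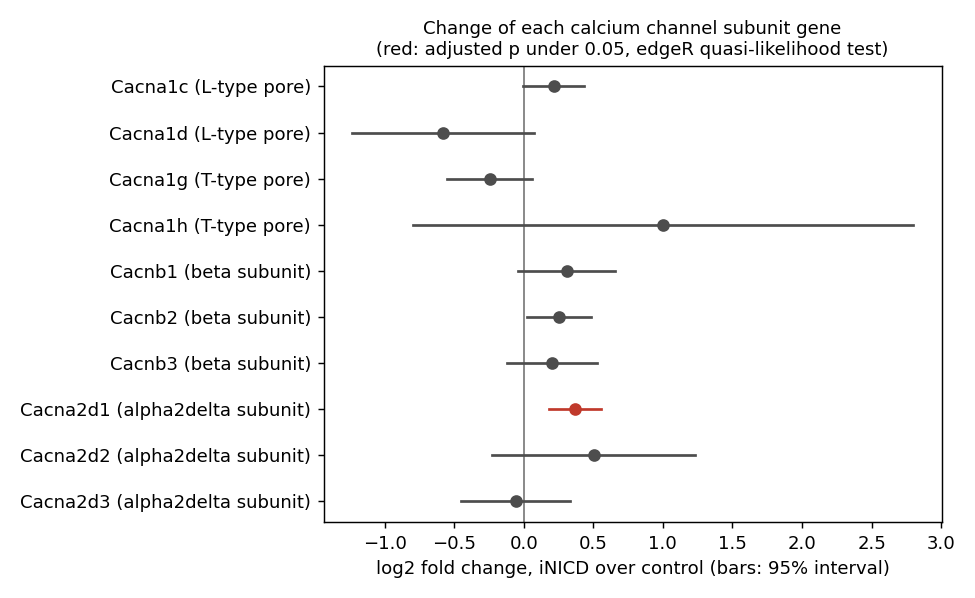
Log2 fold change, iNICD over control, of each calcium channel subunit gene (point) with its 95% interval (bar), from the edgeR quasi-likelihood fit of 6 against 6 libraries; red marks an adjusted p under 0.05. The interval of Cacna2d1 runs from 0.18 to 0.56, and that of Cacna1h, the widest, from -0.79 to 2.80.

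Levels were divided by exonic length to set genes side by side. The length is 1 value per gene, whichever transcripts are present, so the order between genes depends on it. In control LA, Cacna1h had the highest mean with 17.8 normalized CPM per kilobase, followed by Cacna2d1 with 10.1 and Cacna1c with 8.47. The remaining 7 were at 4.92 (Cacnb2), 4.11 (Cacna2d2), 3.20 (Cacnb1), 2.15 (Cacnb3), 1.95 (Cacna1g), 1.36 (Cacna2d3) and 0.83 (Cacna1d). Between neighbours in this order the ranges over the 6 controls overlapped except at 1 step, from Cacna1c down to Cacnb2. Cacna1h exceeded Cacna2d1 in 5 of 6 controls. The order of means in iNICD LA was the same, from 35.7 for Cacna1h to 0.56 for Cacna1d. There the ranges were separate at 3 steps, below Cacna1c, below Cacnb1 and below Cacnb3. The main L-type pore, Cacna1c, and the alpha2delta subunit Cacna2d1 thus stood above every beta subunit in each library of both groups.

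**Figure D2:**
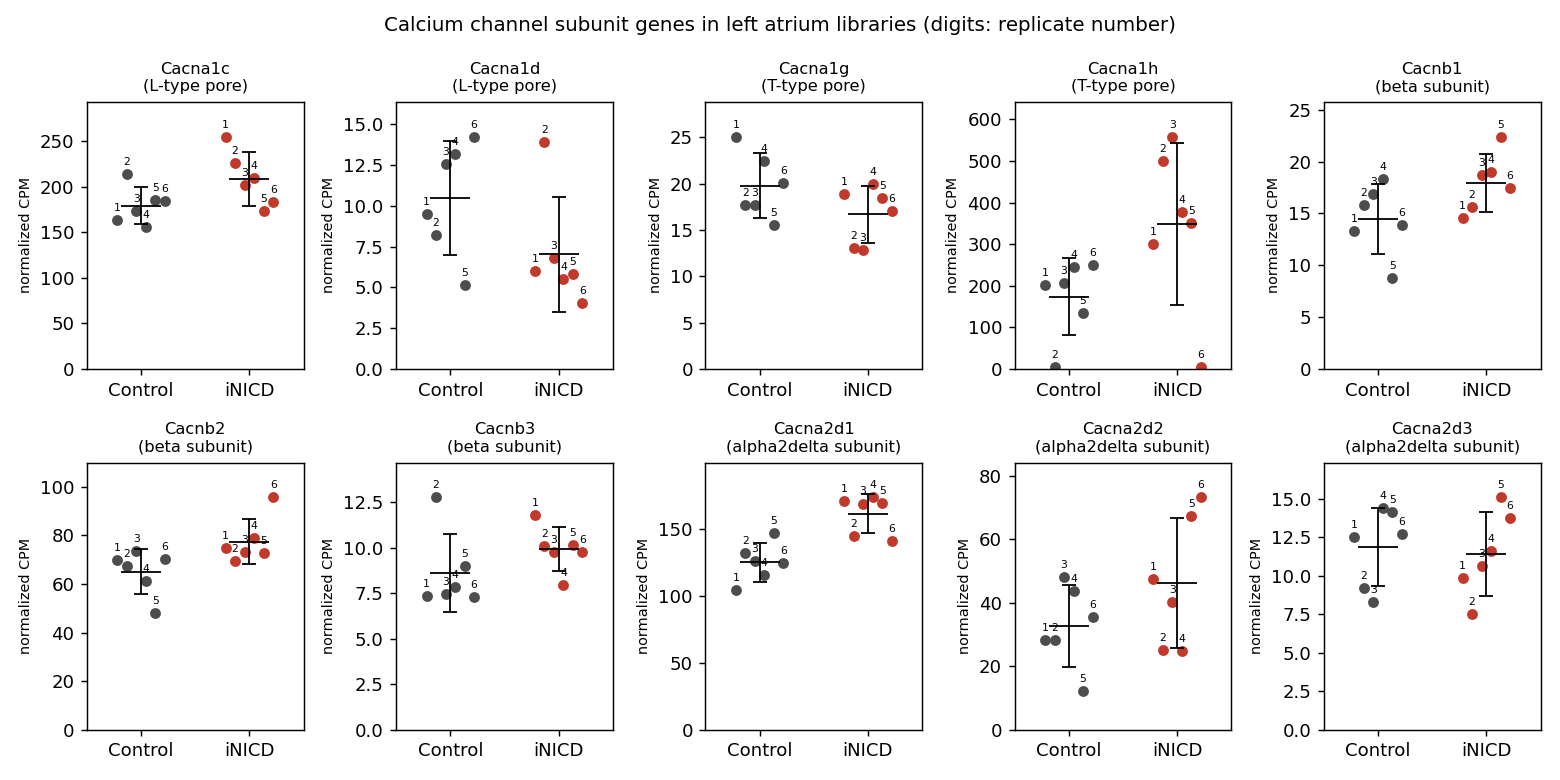
Normalized CPM of the 10 subunit genes in each library (points, labelled by replicate number; linear axes from 0, scaled per gene), with the mean (line) and SD (bar) of 6 control and 6 iNICD libraries. All iNICD points of Cacna2d1 lie above the control median of 125, and control replicate 2 and iNICD replicate 6 lie near 0 for Cacna1h.

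Among the L-type pores, neither gene passed the test. Cacna1c, the pore of the current that triggers contraction in atrial and ventricular cardiomyocytes (chr6:118587240-119196418, minus strand, GRCm38), had a control minimum of 156, median of 179 and maximum of 214, and iNICD values of 174, 206 and 255. The groups overlapped over much of their range, with 2 iNICD libraries above every control. Its log2 fold change was 0.22 (SE 0.10, 95% interval -0.0032 to 0.43, edgeR adjusted p = 0.292, exact permutation p = 0.0823). Cacna1d, the L-type pore that opens at more negative potentials and is used in the sinoatrial node and atria (chr14:30039939-30491455, minus strand), had values of 5.15, 11.03 and 14.3 in controls and of 4.02, 5.93 and 13.9 in iNICD. Control replicate 5 was the low control and iNICD replicate 2 the high iNICD library, and each fell inside the range of the opposite group. The log2 fold change was -0.58 (SE 0.30, 95% interval -1.24 to 0.08, edgeR adjusted p = 0.349), and it was -0.72 without control replicate 5 and -0.89 without iNICD replicate 2, below the threshold in neither fit (edgeR adjusted p = 0.175 and 0.0767). Pacemaker markers (Hcn4, Shox2, Isl1 and Tbx3) summed to 7.49 to 12.5 in controls and 6.53 to 9.65 in iNICD, and 0 of the 2 tested were called. Their part in the level of Cacna1d was not tested.

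Cacna1d made up 9.02% ± 3.18 (SD, n = 6) of the per-length level of both L-type pores in controls and 5.28% ± 2.16 (SD, n = 6) in iNICD. The difference of -3.75 percentage points had an exact two-sided permutation p of 0.0346, and 0.173 after Benjamini-Hochberg adjustment over the 5 subunit shares compared. Of the 6 iNICD libraries, 3 lay below every control for this share.

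Among the T-type pores, Cacna1g (chr11:94408391-94474198, minus strand), a pore of sinoatrial and atrioventricular nodal cells, was at 15.6, 18.9 and 25.1 in controls (lowest, median, highest) and at 12.8, 17.7 and 19.9 in iNICD. Its groups overlapped, with 2 iNICD libraries below every control, and the log2 fold change was -0.24 (SE 0.14, 95% interval -0.55 to 0.06, edgeR adjusted p = 0.402). Cacna1h (chr17:25374285-25433783, minus strand), the T-type pore known from fetal and stressed myocardium, varied most. Its control values were 202, 4.13, 207, 246, 134 and 251 in replicates 1 to 6, and its iNICD values 301, 501, 558, 376, 352 and 5.01. Control replicate 2, from a female, and iNICD replicate 6, from a male, were thus 32.4 and 60.1 times below the lowest other library of their group. In counts, they held 112 and 122, and the other libraries between 2857 and 15298. With all 12 libraries the log2 fold change was 1.00 with an SE of 0.83 (95% interval -0.79 to 2.80, edgeR adjusted p = 0.569, exact permutation p = 0.457). In the other 10 libraries each iNICD value (301 to 558) lay above each control value (134 to 251), a description that carries no test, since the libraries set aside were picked on this gene.

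The low level of Cacna1h in these 2 libraries had few counterparts. Of the 13541 tested genes, 2 were more than 3 times below every other library of their group in both, Cacna1h and Rps2, and 0 were more than 3 times above. Rps2, which encodes a protein of the small ribosomal subunit, lies on the same chromosome, 652356 bases from Cacna1h, and was at 6.01 and 6.24 in those libraries, at 27.5 to 40.0 in the other controls and at 22.9 to 44.3 in the other iNICD libraries. Tekt4, 20832 bases from Cacna1h, a tektin of cilia and flagella, was at 0.63 and 0.12, in each case the lowest of its group, with 17 and 3 counts. Control replicate 5 had a like Tekt4 level, 0.75 with 16 counts, while its Cacna1h was at 134. Within 1 megabase of Cacna1h, 3 of 72 tested genes (Rnps1, Rps2 and Tekt4) were the lowest of their group in both libraries, 4.17% beside 1.45% of all tested genes. Myh7 was low in the same 2 libraries, at 17.8 and 29.6, but also in control replicate 1 and iNICD replicate 2, where Cacna1h was at 202 and 501. The part of these features in the Cacna1h level was not tested.

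**Figure D3:**
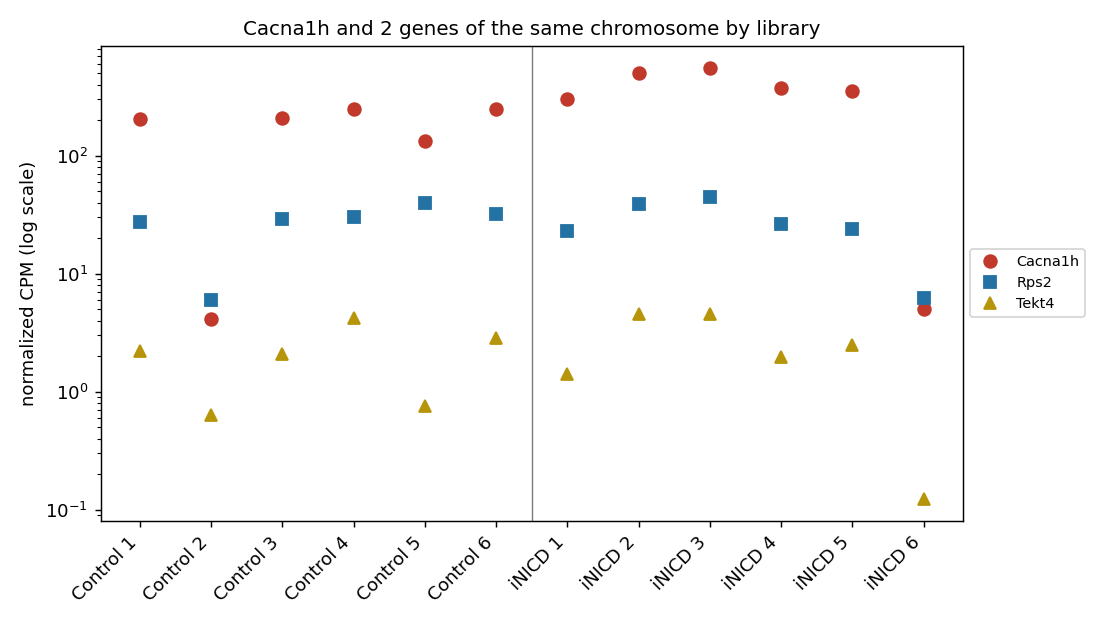
Normalized CPM (log axis) of Cacna1h and of Rps2 and Tekt4, 2 genes of the same chromosome, in each control and iNICD library. Cacna1h and Rps2 drop in control replicate 2 (4.13 and 6.01) and iNICD replicate 6 (5.01 and 6.24), and Tekt4 is the lowest of its group in the same libraries (0.63 and 0.12), although control replicate 5 is near the first of these (0.75).

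The 2 T-type pores together made up 62.4% ± 22.8 (SD, n = 6) of the per-length level of the 4 pores in controls and 70.0% ± 25.1 in iNICD (difference 7.63 percentage points, exact permutation p = 0.465, adjusted 0.776). The libraries just named held the lowest shares, 16.8% in control replicate 2 and 19.6% in iNICD replicate 6, against 62.4% to 85.3% in the remaining 10. Cacna1h itself was 79.3% ± 29.3 of the T-type level in controls and 83.9% ± 29.7 in iNICD (difference 4.59 points, exact permutation p = 0.457, adjusted 0.776). Both differences moved with these libraries: without control replicate 2 they were -1.48 points (T-type) and -7.37 points (Cacna1h), and without iNICD replicate 6 they were 17.7 and 16.7 points. By RNA per length, T-type pores exceeded L-type pores in 10 of 12 libraries, a count that depends on the lengths used. In counts not divided by length, control replicate 5 held 2857 (Cacna1h) and 333 (Cacna1g) against 3971 (Cacna1c) and 110 (Cacna1d).

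**Figure D4:**
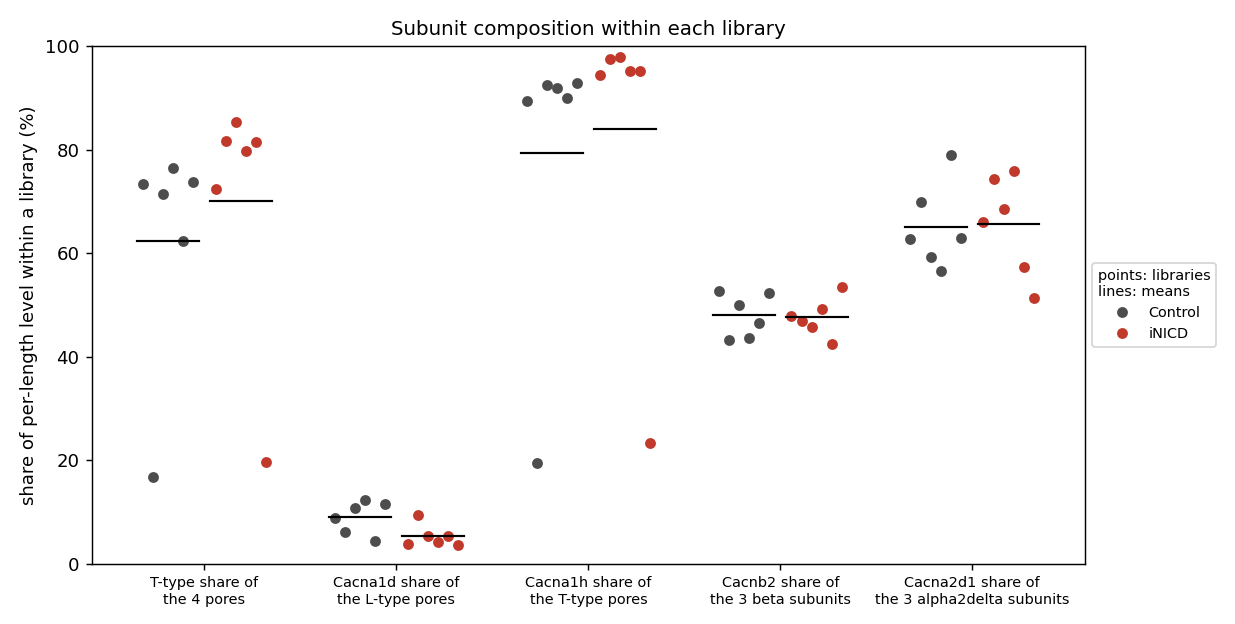
Share of the per-length level within each library, in percent, for 5 subunit ratios; points are 6 control and 6 iNICD libraries and lines are group means. The T-type share holds a point under 20% in each group, and the means of the Cacnb2 share (48.0% and 47.6%) and the Cacna2d1 share (65.0% and 65.5%) lie close together.

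All 3 beta subunit genes had log2 fold changes above 0, and none passed the test. Cacnb2, the predominant cardiac beta subunit (chr2:14603088-14987908, plus strand), was at 48.1, 68.6 and 73.6 in controls (lowest, median, highest) and at 69.5, 74.0 and 95.7 in iNICD. Every iNICD library exceeded the control median and 3 exceeded every control. Its log2 fold change of 0.25 (SE 0.11, 95% interval 0.02 to 0.48) had an exact permutation p of 0.0216 and an edgeR adjusted p of 0.240. Without control replicate 5, the lowest control, it was 0.18 (edgeR adjusted p = 0.257). Cacnb1, best known as the skeletal muscle beta subunit (chr11:98001508-98023034, minus strand), was at 8.75, 14.8 and 18.3 in controls and at 14.5, 18.1 and 22.4 in iNICD, a log2 fold change of 0.31 (SE 0.16, 95% interval -0.04 to 0.65, edgeR adjusted p = 0.343). Here too the lowest control was replicate 5, without which the log2 fold change was 0.20 (edgeR adjusted p = 0.411), and 3 iNICD libraries lay above every control. Cacnb3, a beta subunit widespread in neurons and smooth muscle (chr15:98630840-98644529, plus strand), was at 7.27, 7.65 and 12.8 in controls and at 7.95, 9.94 and 11.8 in iNICD, with a log2 fold change of 0.20 (SE 0.15, 95% interval -0.12 to 0.53, edgeR adjusted p = 0.513). No iNICD library exceeded every control, since control replicate 2 held the highest value, without which the log2 fold change was 0.34 (edgeR adjusted p = 0.134). Cacnb2 made up 48.0% ± 4.19 (SD, n = 6) of the per-length beta subunit level in controls and 47.6% ± 3.70 in iNICD, a difference of -0.43 points (exact permutation p = 0.859, adjusted 0.922).

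Among the alpha2delta subunits, Cacna2d1 rose and the other two did not pass the test. Cacna2d1, the main alpha2delta subunit of cardiac L-type channels (chr5:15934691-16374511, plus strand), had values of 104, 125 and 147 in controls (lowest, median, highest) and of 141, 169 and 174 in iNICD. Only control replicate 5, at 147, reached into the iNICD range, where iNICD replicates 2 and 6 were at 145 and 141, and the other 4 iNICD libraries lay above every control. Means were 125 ± 14.6 and 161 ± 14.5 (SD, n = 6), a log2 fold change of 0.37 (SE 0.09, 95% interval 0.18 to 0.56, edgeR adjusted p = 0.0298, exact permutation p = 0.00649, where 924 arrangements allow no less than 0.00216). The call was lost with no filter on low counts (edgeR adjusted p = 0.0586), with the replicate number as a block (0.0707 by titles, 0.0694 by descriptions) and in females only (0.0580). It also depended on single libraries: it held without control replicate 5 (edgeR adjusted p = 0.00664) or iNICD replicate 2 or 6, and was lost without any one of control replicates 1, 2, 3, 4 and 6 and iNICD replicates 1, 3, 4 and 5 (edgeR adjusted p between 0.0512 and 0.0863, log2 fold change between 0.32 and 0.42 over all 12 omissions). Over every alternative tried the adjusted p ran from 0.00619 to 0.776, the highest in males alone.

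Cacna2d2 (chr9:107399612-107529343, plus strand), an alpha2delta subunit of brain, lung and atrium, was spread widely, at 12.2, 31.9 and 48.1 in controls and at 24.6, 43.8 and 73.1 in iNICD. Its log2 fold change of 0.50 (SE 0.34, 95% interval -0.23 to 1.23, edgeR adjusted p = 0.473) was larger than that of Cacna2d1 but within the spread between libraries, and was 0.33 without control replicate 5, the lowest control, and 0.32 without iNICD replicate 6, the highest iNICD library. Cacna2d3 (chr14:28904943-29721864, minus strand), a mostly neuronal member, was at 8.27, 12.6 and 14.4 in controls and at 7.54, 11.1 and 15.1 in iNICD, with a log2 fold change of -0.06 (SE 0.18, 95% interval -0.45 to 0.34, edgeR adjusted p = 0.901). The share of Cacna2d1 in the per-length alpha2delta level was 65.0% ± 8.17 (SD, n = 6) in controls and 65.5% ± 9.65 in iNICD, a difference of 0.52 points (exact permutation p = 0.922). No marker of another cell type was called among those tested for smooth muscle, endothelium, fibroblasts, epicardium and leukocytes. Summed smooth muscle markers (Myh11, Acta2, Tagln, Cnn1 and Smtn) were at 393 to 569 in controls and 419 to 612 in iNICD; Smtn is the greater part of that sum, and the 5 had a median log2 fold change of -0.25, from -0.67 (Tagln) to 0.30 (Smtn). The 3 epicardial markers (Wt1, Upk3b and Msln) had log2 fold changes of -0.31 to -0.30 and summed to 178 to 237 in controls and 109 to 218 in iNICD. Sums were 589 to 790.1 and 562 to 672 for endothelial, 1689.7 to 2320.3 and 1765 to 2459.9 for fibroblast, and 227 to 289 and 220.4 to 338 for leukocyte markers. Of 6 cardiomyocyte markers, 3 (Tnnt2, Myl7 and Sln) were lower in iNICD, and the sum of all 6, of which Myh6 is the greater part, was 51333 to 55838 in controls and 44731 to 52997 in iNICD. The part of these shifts in the levels of the channel subunits was not tested.

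The sequence before the start of these genes was read from the RefSeq promoter windows of GRCm38.p6, taking the 250 bases upstream of each start, for 8 of the 10 members (14 windows). NICD acts on DNA through RBPJ, and the HES and HEY repressors are direct Notch targets, so the windows were searched on both strands for the RBPJ core TGGGAA (reverse TTCCCA), the HES and HEY E-box CACGTG and the HES class C site CACGCG (reverse CGCGTG), 3 motifs that cannot share a match. TGGGAA was in 21.6% of all 32851 windows and in 1 window each of Cacnb1 and Cacnb3, CACGTG in 6.02% and in 0 member windows, and CACGCG in 7.62% and in 1 window each of Cacna1d, Cacna2d2 and Cacnb2. Windows free of exons are shown for Cacna2d1, the gene called higher, which held none of these letters, for both RBPJ matches, and for Cacna1d, with capitals marking the match. Their GC content was 82.4% (Cacna2d1), 56% (Cacnb1 and Cacnb3) and 86.4% (Cacna1d), beside a median of 52.4% over all windows.
Cacna2d1, chr5:15934441-15934690, plus strand: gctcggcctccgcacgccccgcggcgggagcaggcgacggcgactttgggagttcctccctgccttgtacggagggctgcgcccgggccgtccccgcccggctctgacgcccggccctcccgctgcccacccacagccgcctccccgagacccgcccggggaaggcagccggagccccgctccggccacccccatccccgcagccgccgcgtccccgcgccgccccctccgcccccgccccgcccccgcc
Cacnb1, chr11:98018373-98018622, minus strand: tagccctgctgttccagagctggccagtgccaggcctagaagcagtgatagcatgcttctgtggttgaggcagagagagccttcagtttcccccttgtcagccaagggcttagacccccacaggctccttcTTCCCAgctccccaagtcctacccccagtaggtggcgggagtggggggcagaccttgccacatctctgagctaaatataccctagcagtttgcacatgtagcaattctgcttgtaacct
Cacnb3, chr15:98632078-98632327, plus strand: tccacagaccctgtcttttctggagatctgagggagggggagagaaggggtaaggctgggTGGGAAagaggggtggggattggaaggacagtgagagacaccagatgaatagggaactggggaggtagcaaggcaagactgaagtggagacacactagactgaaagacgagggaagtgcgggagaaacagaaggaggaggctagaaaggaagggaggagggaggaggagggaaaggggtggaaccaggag
Cacna1d, chr14:30353487-30353736, minus strand: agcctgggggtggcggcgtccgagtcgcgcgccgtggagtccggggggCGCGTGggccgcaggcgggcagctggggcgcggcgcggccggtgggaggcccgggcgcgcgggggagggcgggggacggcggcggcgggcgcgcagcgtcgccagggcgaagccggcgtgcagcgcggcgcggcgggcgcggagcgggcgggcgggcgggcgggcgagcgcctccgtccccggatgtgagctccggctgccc

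The match starts 119 bases before the start in Cacnb1, 190 in Cacnb3 and 202 in Cacna1d. A match here is a string of letters and says nothing of binding.

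Sex was examined because both sexes were used. No member passed the test of the interaction between sex and genotype (edgeR quasi-likelihood, lowest adjusted p = 0.916), and 0% of all tested genes did, with 3.7% at an unadjusted p under 0.05. The smallest unadjusted p among members was that of Cacnb1, with a male minus female log2 difference of 0.78 (SE 0.27, edgeR unadjusted p = 0.0156, adjusted p = 0.916). Its means were 16.1 in control and 16.3 in iNICD females, and 11.3 in control and 19.6 in iNICD males. Only 2 male controls underlie this value, and 1 of them is replicate 5. Without control replicate 6, replicate 5, which stood apart, is the lone male control, its arm is assumed to vary like the other groups, and the interaction passed for 12% of all tested genes, Cacnb1 and Cacnb2 among them (lowest edgeR adjusted p = 0.0234). In the other 11 omissions it passed for no member.

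Of the 16 remaining voltage-gated calcium channel genes, 4 reached the level tested (the pores Cacna1a and Cacna1s, the beta subunit Cacnb4 and the gamma subunit Cacng7) and none was called, at an unadjusted p under 0.05 either, by the edgeR quasi-likelihood test. Their median log2 fold change was -0.30. The 2 with the smallest p were Cacna1a, the pore of neuronal P/Q-type channels, at 6.52 ± 1.22 in controls and 5.37 ± 0.52 in iNICD (SD, n = 6; log2 fold change -0.28, edgeR adjusted p = 0.316), and Cacnb4, at 3.14 ± 1.53 and 2.11 ± 0.76 (-0.57, edgeR adjusted p = 0.387).

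Among 23 genes for proteins that act on L-type channels, 20 were tested, 1 was called higher and 0 lower, with a median log2 fold change of 0.03. The gene called was Adrb1, the beta-1 adrenergic receptor, whose signal through cAMP and protein kinase A raises L-type current. It was at 13.2, 16.9 and 25.4 in controls (lowest, median, highest) and at 22.5, 30.0 and 32.5 in iNICD, with 5 of 6 iNICD libraries above every control. Its log2 fold change was 0.70 (SE 0.16, edgeR adjusted p = 0.0230). The call was lost without control replicate 1 (edgeR adjusted p = 0.0544) or 2 (0.0502), or iNICD replicate 1 (0.0580) or 4 (0.0561), with log2 fold changes of 0.62 to 0.83 over the 12 omissions. It was also lost in females only (edgeR adjusted p = 0.198), in males only (0.610) and without control replicate 2 and iNICD replicate 6 together (0.0964). With the replicate number as a block it was lost by descriptions (0.0520) and held by titles (0.0229). An unadjusted edgeR p under 0.05 was reached by 4 of the 20, against 17.4% of all tested genes, so the list lay near the share over all genes. Besides Adrb1, these were 3 genes that missed the adjusted threshold, named here after their values were seen. They were Camk2g, a subunit of calmodulin kinase (log2 fold change 0.26, edgeR adjusted p = 0.0549), and Calm3, 1 of the calmodulin genes (0.31, edgeR adjusted p = 0.172). The last was Gem, a small GTPase that inhibits the channel through its beta subunit (-0.83, edgeR adjusted p = 0.169). In Gem, 5 of 6 iNICD libraries lay below every control.

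The tested genes whose values moved most like Cacna2d1 between libraries of 1 group were 1700025G04Rik (Spearman rho 0.96), Tatdn1 (0.95) and Tstd3 (0.94), over the 12 libraries and with group means removed. For Cacna1c they were Parp16 (0.96), Dst (0.92) and Zbed5 (0.92). These are the highest of 13541 values for each gene, from libraries that share their scaling, and are given as a description. Of the 6, 1700025G04Rik was called higher in iNICD, at a mean of 184 against 124 in controls (log2 fold change 0.57, edgeR adjusted p = 0.0425).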

How the data were processed

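The authors sequenced stranded, ribosomal RNA-depleted, single-end libraries of 12 left atria and deposited them as unnormalized read counts for each gene name, on mm10. The submitters' processing notes name cutadapt, STAR 2.4.2a, featureCounts and edgeR, and the study's methods also name a TopHat2 and HTSeq route; which of them made the table is not given in the sources used here. The deposited table also has a gene length in bases, used only for per-length levels. Groups and replicate numbers come from the titles and sex from the descriptions. Control replicates 4 and 5 follow the titles; the descriptions, and the table's header, number them the other way round.

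The 13541 genes that passed 1 CPM in 6 or more libraries went into edgeR 4.0.16 (R 4.3.3) by its quasi-likelihood method (TMM, two-sided, Benjamini-Hochberg, threshold 0.05). SEs were derived from the F statistic. Exact permutation tests of mean log2 normalized CPM (members, pseudocount 0.5) or share were two-sided. The comparison of iNICD with control was checked on simulated counts. There the quasi-likelihood test recovered 54% of genes set at 1.5-fold and 92% of those set at 2-fold. The interaction, the sex covariate and the replicate blocks were not simulated. Positions are from GENCODE M21. Opposite-strand exons overlap Cacna1d, Cacna1h, Cacnb1, Cacnb2 and Cacna2d2, and the counting strand is not given. No 2 libraries were copies. Same-numbered control and iNICD libraries correlated in their deviations between -0.15 and 0.41. Differently numbered libraries were not set beside them, so these values cannot show whether the numbers pair animals. The main test used no replicate block. Alternatives were DESeq2 1.42.0, the edgeR exact test, other normalizations and filters, sex, replicate blocks, 1 sex only and each library left out.

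The members and gene lists were chosen with earlier results of these data known. All members are named; of the lists of other channel genes and of regulators, up to 5 called genes each way or otherwise the 2 with the smallest p, plus the 3 genes most like each called member and Cacna1c. Cell type markers were named as whole lists or by their calls.

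A list of neuron markers is not reported here.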

Additional observations from a re-analysis of the deposited data

Results flagged for a closer look

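Single libraries lay far from the rest of their group (Dixon's test at its 95% critical value) in 8 of the 30 groups of 6 libraries examined, of which chance gives about 1.5, or 1 in 20. The groups are not independent, since 5 of the 8 flags are in shares built from the same genes. For Cacna1d, iNICD replicate 2 was at 13.9 normalized CPM, and its Cacna1d share of the L-type pores was 9.39%. Cacnb2 was at 95.7 in iNICD replicate 6, and Cacnb3 at 12.8 in control replicate 2, each above the rest of its group. The T-type share of the 4 pores was 16.8% in control replicate 2 and 19.6% in iNICD replicate 6, and the Cacna1h share of the T-type pores was 19.5% and 23.4% in the same libraries. The cause was not tested.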

How the results depend on the processing

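The Cacna2d1 call was the only one among the members. It gave way to 0 members called higher with no filter on low counts (adjusted p = 0.0586), with the replicate number as a block (0.0707 by titles, 0.0694 by descriptions), in females only (0.0580) and in males only (0.776), and leaving out 1 library gave 0 to 1; its log2 fold change stayed above 0 in all 26 alternatives. Regulator genes called higher were 2 with DESeq2, 2 with upper-quartile factors, 3 with library totals, 2 with sex as a covariate, and 0 with the description block, in females, in males, or without control replicate 2 and iNICD replicate 6 together (added after seeing the data, where Cacna2d1 had an adjusted p of 0.0460). With 1 library left out they were 0 to 3, the interaction called 0 to 2 members, and Gem was the 1 regulator called lower under the description block. No other call on a member changed under either block. Whether these numbers pair animals could not be told. The sign turned for Cacna1g in males only (0.037) and for Cacna2d3 without control replicate 4 or iNICD replicate 2 (-0.15 to 0.037 over the 12 omissions). Leaving out 1 library moved the T-type share difference from -1.48 to 17.7 points, the Cacna1h share from -7.37 to 16.7, the Cacnb2 share from -1.61 to 0.61 and the Cacna2d1 share from -1.56 to 3.37. The cause of these changes was not tested. Over all genes, 558 were called, 1124 by DESeq2, 9 in males and 375 to 812 with 1 library left out. Cacna1d had the fewest counts, 98 in 1 library.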
